A study of Mus musculus with 12 samples.

Results

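The genes described here are the receptors for the constant (Fc) part of IgG and the proteins through which they signal: the activating receptors Fcgr1, Fcgr3 and Fcgr4, the inhibitory receptor Fcgr2b, the signalling chain Fcer1g, the kinase Syk and the neonatal Fc receptor Fcgrt. They were chosen by name, 7 of the 23420 genes in the count table, and all 7 passed the filter on low counts. RNA was sequenced from M-MDSCs, which are immature, monocyte-like myeloid cells, sorted as CD11b+Ly6G-Ly6Chi cells from bone marrow, with the tibia given as the tissue in the sample labels. The mice were male and of the strain C57BL/6JNIA, with 6 aged mice of 24 months and 6 young mice of 6 months and 1 library for each mouse. No allele or transgene was named for either age. Levels are given as CPM, counts of a gene relative to the scaled total of its library, and as CPM per kb of exon where genes are compared with each other.

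IgG bound to a target is read by myeloid cells through their Fc gamma receptors. Each of the activating receptors Fcgr1, Fcgr3 and Fcgr4 depends on the common gamma chain Fcer1g, whose ITAM motif is phosphorylated by Src family kinases and then recruits and activates Syk. Fcgr2b carries an inhibitory ITIM motif in its own tail and recruits the lipid phosphatase Inpp5d (SHIP-1). Fcgrt pairs with beta-2-microglobulin (B2m), binds IgG in acidic endosomes and returns it to the cell surface, which prolongs the life of IgG in the blood. In bone, Fcer1g is best known, beside the related chain Tyrobp (DAP12), as a source of the costimulatory signals that osteoclast precursors need.

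Fcgr2b, Fcgr3, Fcgr4 and Fcer1g lie close together on chromosome 1 in the positions of the deposited table (mm10). Fcgr2b spans chr1:170960559-170976071 on the minus strand (8 exons), Fcgr4 chr1:171018926-171029761 on the plus strand (5 exons), Fcgr3 chr1:171051169-171059403 on the minus strand (5 exons) and Fcer1g chr1:171229572-171234349 on the minus strand (5 exons). Fcgr1 spans chr3:96282909-96293969 on the minus strand (6 exons), Syk chr13:52583437-52648792 on the plus strand (15 exons) and Fcgrt chr7:45092993-45103822 on the minus strand (7 exons). No other gene of the table overlapped one of them.

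The inhibitory Fcgr2b and the activating Fcgr3 are close relatives in sequence. Their coding sequences (GENCODE transcripts, mm10) were identical at 83.9% of 784 aligned bases, whereas the other pairs among the 4 Fc gamma receptors were identical at 58.6% to 63.5% of aligned bases. The longest run that both share has 129 bases, at coding positions 278 to 406 of Fcgr2b and 263 to 391 of Fcgr3, and it is shown because a fragment from within it fits both genes. How many such fragments the mapping quality filter left out of the counts was not tested. In the other pairs the longest shared run had 9 to 14 bases.
Shared run of Fcgr2b and Fcgr3: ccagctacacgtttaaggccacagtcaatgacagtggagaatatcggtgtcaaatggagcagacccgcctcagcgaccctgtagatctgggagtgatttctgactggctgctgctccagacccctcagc

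The promoters of the 3 activating receptors are shown because Fcgr3 and Fcgr4 varied together between mice and Fcgr1 is a known target of interferon gamma. Sequences are those of RefSeq (GRCm38.p6), from 250 bases before to 50 bases after the start of the gene, written 5′ to 3′ on the strand of the gene. Capitals mark matches, on either strand, to a PU.1 core (GAGGAA), a GAS element (TTCNNNGAA) and an ISRE-like element (GAAA and GAAA with 2 bases of any kind between them). PU.1 is the master regulator of myeloid genes, and GAS and ISRE elements are read by factors that act after interferons.
Fcgr1, chr3:96293920-96294219, minus strand: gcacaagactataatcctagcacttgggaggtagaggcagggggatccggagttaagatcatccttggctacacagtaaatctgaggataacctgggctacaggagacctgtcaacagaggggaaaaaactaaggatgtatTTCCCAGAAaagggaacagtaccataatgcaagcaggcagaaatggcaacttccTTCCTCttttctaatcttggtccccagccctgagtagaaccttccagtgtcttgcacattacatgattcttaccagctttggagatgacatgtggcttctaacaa
Fcgr3, chr1:171059354-171059653, minus strand: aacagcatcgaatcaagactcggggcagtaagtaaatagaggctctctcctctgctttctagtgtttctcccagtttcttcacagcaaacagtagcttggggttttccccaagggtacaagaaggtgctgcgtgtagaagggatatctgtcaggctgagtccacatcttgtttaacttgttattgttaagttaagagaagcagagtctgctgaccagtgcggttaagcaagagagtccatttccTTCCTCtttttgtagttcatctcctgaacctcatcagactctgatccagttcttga
Fcgr4, chr1:171018676-171018975, plus strand: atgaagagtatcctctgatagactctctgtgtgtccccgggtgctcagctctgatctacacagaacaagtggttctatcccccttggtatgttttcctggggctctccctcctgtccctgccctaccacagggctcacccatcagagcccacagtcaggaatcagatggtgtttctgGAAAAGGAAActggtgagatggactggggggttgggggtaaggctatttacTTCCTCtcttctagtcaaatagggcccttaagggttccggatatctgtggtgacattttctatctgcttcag

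A PU.1 core was found in each of these 3 windows, with its first base at -55 from the start of Fcgr1, -6 from that of Fcgr3 and -22 from that of Fcgr4. The same letters were present in 28.3% of 32851 promoter entries. The GAS letters were found in Fcgr1 (at -109) and in 8.30% of all entries, and the ISRE-like letters in Fcgr4 (at -73) and in 3.44% of all entries. None of the 3 motifs overlapped another in these windows, and the windows of Fcgr2b, Fcer1g and Fcgrt held none of them. A start of Syk at chr13:52596632-52596931 held a PU.1 core at -9, and its other window held none. A match is a run of letters and was not measured as a binding site here.

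The young libraries held 4613239 to 9079237 fragments and the aged ones 8737941 to 16300374, so that 3 counts corresponded to 0.188 to 0.349 CPM in aged and 0.305 to 0.642 CPM in young libraries. Young mice 5 and 6 stood apart from the other young mice on the first principal component (-21.9 and -20.0 against -11.1 to -8.73), and values without them are given for several of the genes described here. Transcripts of neutrophils and their precursors were far more abundant than those of classical monocytes in every library: the 12 markers of the former summed to 87963 to 105716 CPM in aged and 68032 to 93594 CPM in young mice, those of the latter to 4739 to 5743 and 5018 to 5651 CPM. Itgam (CD11b) and Ly6c2, which stand for the sort, were present at 2657 to 3476 and 605 to 798 CPM in aged mice and 3264 to 3538 and 366 to 594 CPM in young mice, while the monocyte receptor Ccr2 had a median of 27.4 and 31.7 CPM. The cells are therefore called here by their sort. In bulk libraries, fewer cells of a type and less RNA per cell cannot be told apart. Each library came from its own mouse, but whether aged and young libraries were prepared together is not given in the sources used here, and if they were not, preparation and age cannot be told apart.

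Of the 7 genes, Fcgr4, Fcer1g and Fcgrt were higher in the sorted cells of aged mice, Syk was lower, and Fcgr1, Fcgr3 and Fcgr2b did not pass the test (edgeR's quasi-likelihood test, adjusted p under 0.05 over 9742 genes). Of all genes tested, 22.4% were called higher and 23.0% lower (45.4% in either direction), so that 4 of 7 is close to the share of the whole table. The levels of Fcgr4 and Syk did not overlap between the ages. Across all genes this was so for 9.68% in the direction of Fcgr4 and for 12.1% in that of Syk.

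**Figure D1:**
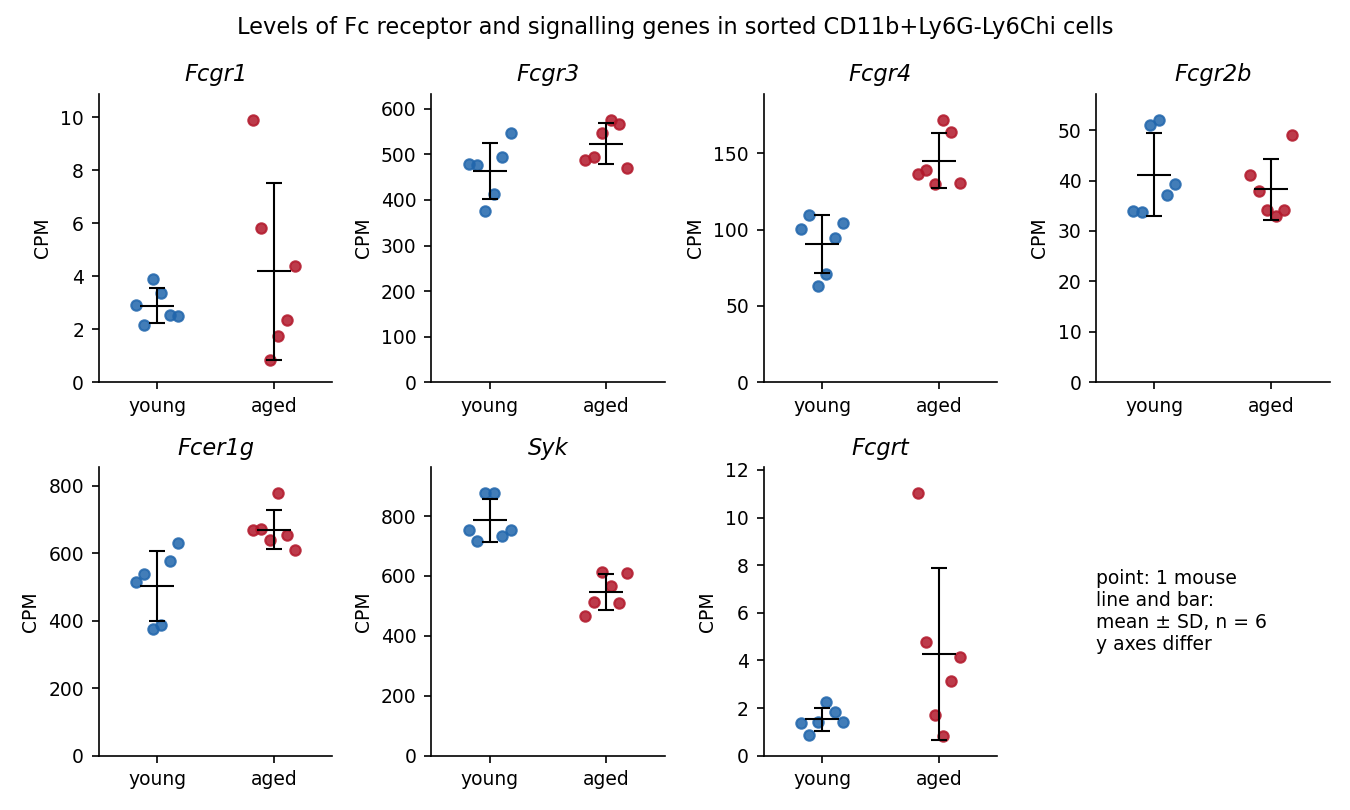
Levels of the 7 genes in each mouse, in CPM, with aged and young mice as points and the mean ± SD (n = 6 per age) beside them; each panel has its own axis. All aged mice lie above all young mice for Fcgr4 (lowest aged 129.8 CPM, highest young 109.6 CPM) and below them for Syk (highest aged 613 CPM, lowest young 717 CPM), while Fcgr1 and Fcgrt are spread widely among aged mice.

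Fcgr4, the activating receptor for IgG2a and IgG2b on monocytes, macrophages and neutrophils, was higher in aged mice. Its level was 129.8 CPM in the lowest aged mouse, 138 CPM at the median and 172 CPM in the highest, against 62.7, 97.6 and 109.6 CPM in young mice. Every aged mouse was above every young mouse, and young mice 5 and 6 had the lowest levels of all (62.7 and 71.0 CPM). Mean levels were 145 ± 18.1 CPM in aged and 90.5 ± 19.1 CPM in young mice (SD, n = 6 each), a 1.61-fold difference with a log2 fold change of 0.69 ± 0.130 (SE, 95% interval 0.40 to 0.98) and an adjusted p = 8.19e-04 with edgeR. Without young mice 5 and 6 the log2 fold change was 0.49 (adjusted p = 0.00109, edgeR).

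Fcgr3, the low affinity activating receptor for IgG immune complexes, was the most abundant Fc gamma receptor. It was measured at 469 CPM in the lowest aged mouse, 521 CPM at the median and 576 CPM in the highest, and at 375, 478 and 548 CPM in young mice. The ranges overlapped, and the lowest values were again those of young mice 5 and 6 (375 and 414 CPM). The log2 fold change of 0.17 ± 0.0906 (SE, 95% interval -0.029 to 0.37) did not pass the test (adjusted p = 0.130, edgeR); the means were 523.5 ± 45.5 CPM in aged and 464 ± 61.4 CPM in young mice (SD, n = 6 each). It passed in 1 of the fits without a mouse: without young mouse 10 the log2 fold change was 0.23 with an adjusted p = 0.0473 (edgeR).

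Fcgr1, the high affinity receptor, which binds monomeric IgG and is typical of macrophages and of monocytes exposed to interferon gamma, was close to the limit of these libraries. Its level was 0.854 CPM in the lowest aged mouse (8 counts), 3.37 CPM at the median and 9.91 CPM in the highest (89 counts), and 2.14, 2.73 and 3.90 CPM in young mice (10 to 36 counts). The young mice lay within the range of the aged mice, which were both the highest and the lowest. The log2 fold change of 0.50 ± 0.436 had an interval from -0.48 to 1.47, which holds both a fall and a large rise (adjusted p = 0.370, edgeR). Without aged mice 1 and 2, the mice with the highest sums of macrophage markers, it was -0.26 (adjusted p = 0.575, edgeR).

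Fcgr2b, the inhibitory receptor, was measured at 33.0 CPM in the lowest aged mouse, 36.1 CPM at the median and 49.0 CPM in the highest, and at 33.8, 38.1 and 52.1 CPM in young mice. The ranges were nearly the same. The log2 fold change was -0.11 ± 0.131 (SE, 95% interval -0.41 to 0.18; adjusted p = 0.502, edgeR), and its sign turned without young mice 5 and 6 (0.068; adjusted p = 0.693, edgeR), in which Fcgr2b was higher (51.0 and 52.1 CPM) than in the other young mice. How fragments that fit both Fcgr2b and Fcgr3 were counted was not tested.

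Fcer1g, the gamma chain without which the activating receptors are not held at the cell surface, was the most abundant of the 7 transcripts per kb. Its level ran from 609 CPM in the lowest aged mouse through a median of 662 CPM to 778 CPM in the highest, and from 374 through 527 to 630.1 CPM in young mice. Young mouse 10 was above the lowest aged mouse, so the ranges overlapped, and young mice 5 and 6 were the lowest of all (374 and 387 CPM). The level was 1.33-fold higher in aged mice, at 670.0 ± 57.6 CPM against 503 ± 103 CPM (SD, n = 6 each), with a log2 fold change of 0.41 ± 0.119 (SE, 95% interval 0.15 to 0.68) and an adjusted p = 0.0111 (edgeR). It was 0.23 without young mice 5 and 6 (adjusted p = 0.0370, edgeR).

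The call for Fcer1g was lost, and its direction turned, when the length of genes was taken into account. With 658 bases of exon, Fcer1g belongs to the short genes of the table, whose median is 2890 bases. The 338 tested genes of at most 700 bases had a median log2 fold change of 0.60 and the 1787 genes of at least 5000 bases one of -0.31, and Spearman's correlation of exon length with log2 fold change was -0.48 across genes, which are not independent replicates. After a correction for exon length, the value was -0.10 for Fcer1g (adjusted p = 0.227, edgeR), 0.42 for Fcgr4 (adjusted p = 0.00742) and -0.30 for Syk (adjusted p = 0.00507). The same correction turned Fcgr3 to -0.073 (adjusted p = 0.445) and left Fcgrt at 1.25 without a call (adjusted p = 0.0544, edgeR). The part of length in the measured difference of Fcer1g was not tested otherwise.

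Syk, the tyrosine kinase that docks on the phosphorylated ITAM of the gamma chain, went the other way from the chain. Its level was 465 CPM in the lowest aged mouse, 540.2 CPM at the median and 613 CPM in the highest, and 717, 754 and 876 CPM in young mice. Every aged mouse was below every young mouse, and young mice 5 and 6 were the highest (both 876 CPM). Mean levels were 547 ± 60.1 CPM in aged and 785 ± 71.6 CPM in young mice (SD, n = 6 each), a level of 0.696 times that of young mice, with a log2 fold change of -0.52 ± 0.0844 (SE, 95% interval -0.71 to -0.33; adjusted p = 2.87e-04, edgeR). Without young mice 5 and 6 it was -0.46 (adjusted p = 8.08e-04, edgeR).

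Fcgrt, the receptor that recycles IgG, was a low transcript here. It was measured at 0.831 CPM in the lowest aged mouse (9 counts), 3.62 CPM at the median and 11.02 CPM in the highest (99 counts), and at 0.856, 1.41 and 2.24 CPM in young mice (4 to 22 counts). Aged mouse 5 was below every young mouse, and 4 of 6 aged mice were above all young mice. The log2 fold change was 1.41 ± 0.484 (SE, 95% interval 0.33 to 2.49), with an adjusted p = 0.0268 (edgeR), for means of 4.26 ± 3.62 and 1.52 ± 0.471 CPM (SD, n = 6 each). The call was lost without aged mouse 1 (0.88; adjusted p = 0.0727, edgeR), which had the highest level, and without young mouse 5 (1.38; adjusted p = 0.0518, edgeR). It was also lost with limma-voom (0.98; adjusted p = 0.159), and 5 of 11 other settings called it. B2m, its light chain, which it shares with MHC class I, was higher in aged mice (991 ± 132 against 679 ± 150 CPM; log2 fold change 0.54, adjusted p = 0.00566, edgeR); it too is a short gene, and its log2 fold change was 0.14 after the correction for length (adjusted p = 0.242, edgeR).

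**Figure D2:**
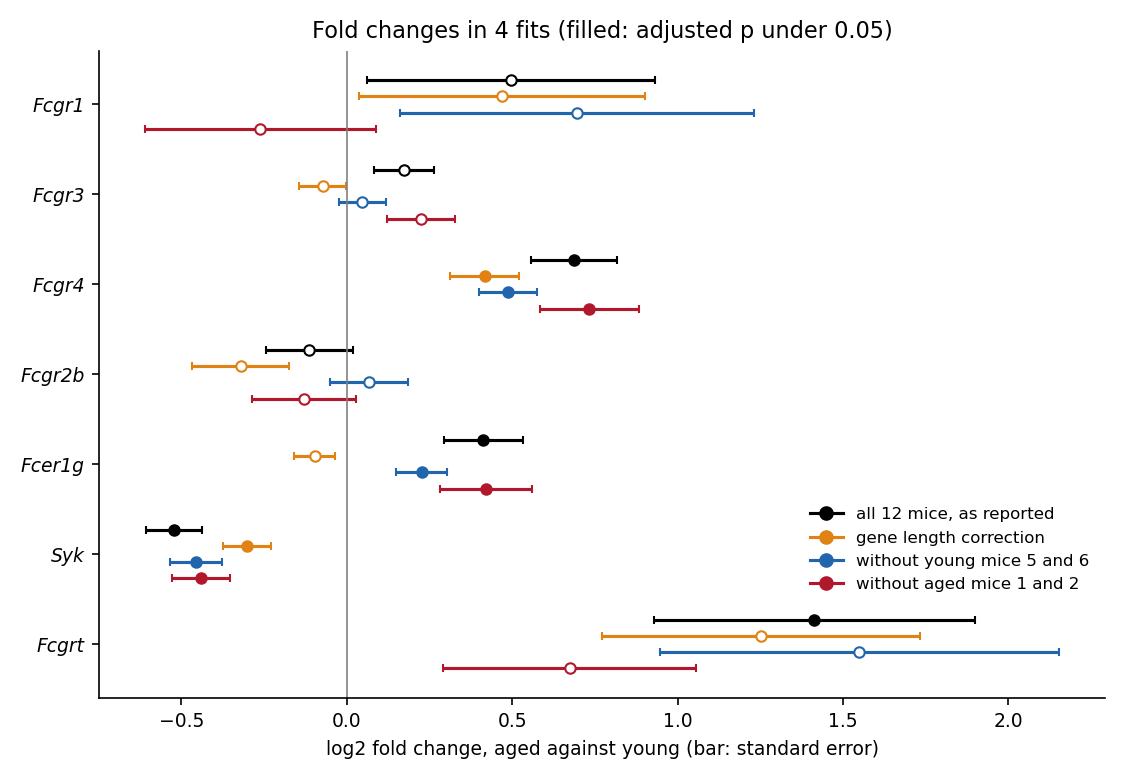
Log2 fold changes of the 7 genes, aged against young, with bars for the standard error, in 4 fits (all 12 mice, the length correction, without young mice 5 and 6, without aged mice 1 and 2), with filled points where the adjusted p is under 0.05. Fcgr4 is above 0 and Syk below 0 with filled points in each fit drawn, Fcer1g is at -0.10 with the length correction, and Fcgrt is filled only for all 12 mice.

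Per kb of exon, Fcer1g stood first in aged mice (mean 1018 CPM per kb), followed by Fcgr3 (387), Fcgr4 (116), Syk (104), Fcgr2b (24.7), Fcgrt (2.45) and Fcgr1 (1.61). In young mice the order was Fcer1g (765), Fcgr3 (343), Syk (149), Fcgr4 (72.4), Fcgr2b (26.6), Fcgr1 (1.12) and Fcgrt (0.876). Neighbours with overlapping ranges were Fcgr4 and Syk in aged mice and Fcgr1 and Fcgrt at both ages. The place of Fcgr4 among the 9742 genes tested was 511 in aged and 763 in young mice, that of Syk 582 and 319. By their means, Syk and Fcgr4 exchanged places between the ages.

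Of the summed levels per kb of the 4 Fc gamma receptors, Fcgr3 made up 73.0% in aged and 77.3% in young mice, Fcgr4 21.9% and 16.2%, Fcgr2b 4.74% and 6.20%, and Fcgr1 0.316% and 0.261% (means, n = 6 each). The share of Fcgr4 ran from 19.6% to 23.5% with aged mice and from 13.9% to 18.96% with young mice, with no overlap. The ratio of Fcgr4 to Fcgr3 likewise lay between 0.257 and 0.323 in aged mice and between 0.181 and 0.249 in young mice. The activating receptors summed to 14.3 to 26.4 times the level of Fcgr2b in aged mice and 9.96 to 20.1 times in young mice, and these ranges overlapped. The gamma chain was present at 1.80 to 2.15 times the summed activating receptors in aged mice and 1.62 to 1.98 times in young mice, also with overlap.

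As counted, the gamma chain was higher and its kinase lower in aged mice, whereas with the correction for length Fcer1g was at -0.10 and Syk at -0.30. Fcer1g was 7.99 to 11.5 times the level of Syk per kb in aged mice and 3.42 to 6.69 times in young mice, with no overlap between the ages. These ratios of transcripts are descriptions of the levels above and were given no test, and they were not corrected for length.

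**Figure D3:**
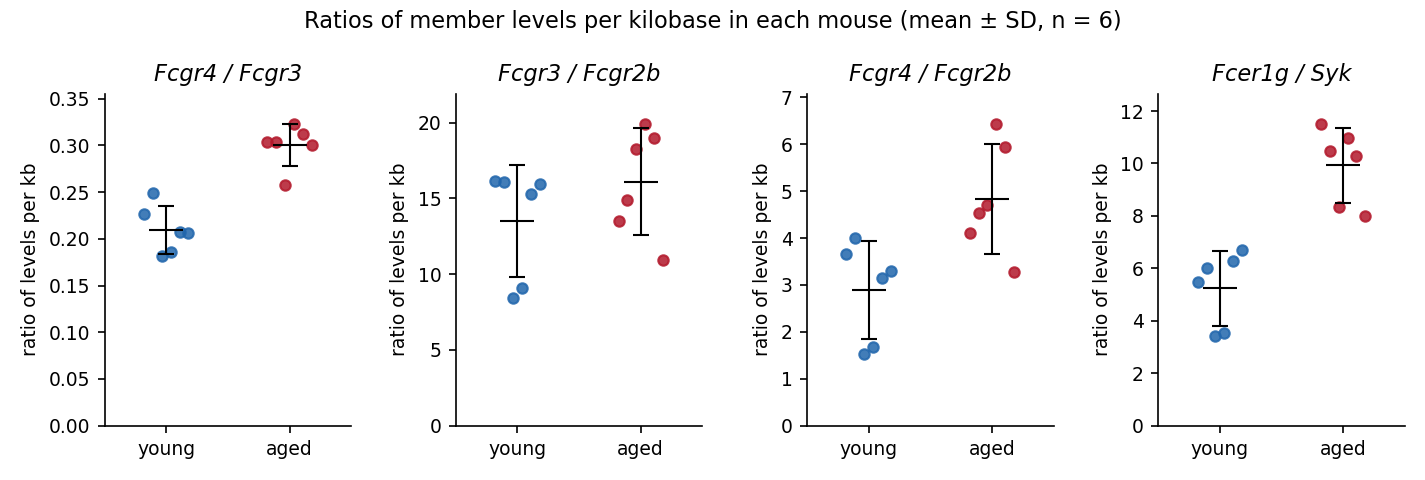
Ratios of levels per kb in each young and aged mouse (points) with the mean ± SD (n = 6 per age), in 4 panels with their own axes. Aged and young mice do not overlap for Fcgr4 to Fcgr3 (0.257 to 0.323 against 0.181 to 0.249) and for Fcer1g to Syk (7.99 to 11.5 against 3.42 to 6.69), and overlap for the ratios to Fcgr2b.

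Within an age, the mice differed in these genes in a shared way. After the mean of each age was subtracted, log2 levels of Fcgr3, Fcgr4 and Fcer1g had Pearson correlations of 0.87 to 0.88 with each other over 12 mice, those of Fcgr2b with Fcgr3 and Fcgr4 were -0.81 and -0.83, and that of Fcgr1 with Fcgrt was 0.84. These points share libraries and depth and are given as a description. Without young mice 5 and 6 the values among Fcgr3, Fcgr4 and Fcer1g were 0.54 to 0.69, those of Fcgr2b with Fcgr3 and Fcgr4 were -0.59 and -0.58, and that of Fcgr1 with Fcgrt was 0.86 over 10 mice. The genes most like each member on the same measure were Arf1 and Tlr13 for Fcgr3 (0.98 and 0.97), Msra and Rab32 for Fcgr4 (0.98 and 0.97), Xpo1 and Mast2 for Fcgr2b (0.98 and 0.97), Rps21, Ppp1ca and S100a9 for Fcer1g (0.98, 0.98 and 0.97), Atrn and Ythdc1 for Syk (0.97 and 0.96), Pid1 and Ly86 for Fcgr1 (0.98 and 0.96) and Dse and Mdfic for Fcgrt (0.96 and 0.94).

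Markers of other cells moved with age in the same libraries. All 12 tested markers of resident macrophages were called higher in aged mice, with a median log2 fold change of 2.49, and their summed level was 670.1 to 1929 CPM in aged and 434 to 606 CPM in young mice, highest in aged mice 1 and 2 (1929 and 962 CPM). Aged mouse 1 had the highest Fcgr1 and Fcgrt as well. Of the macrophage sum, Slc40a1 alone gave 442 to 608 CPM in aged and 342 to 504 CPM in young mice (log2 fold change 0.31). Fcgrt correlated within age, over 12 mice, with the macrophage sum at 0.67 and more closely with the sums of NK and T cells (0.84), plasma cells (0.83), B cells (0.83), erythroid cells (0.81), non-classical monocytes (0.76) and dendritic cells (0.74). Cd4 gave up to 25.3 CPM of the NK and T cell sum, whereas Cd3e and Cd3g were at most 0.115 and 0.473 CPM. Fcgr1 correlated with the macrophage sum at 0.60 and with that of dendritic cells at 0.87. It was at 0.86 with erythroid cells and at 0.79 with NK and T cells. The values for Syk were -0.80 with macrophages and -0.74 with stromal and endothelial cells. Fcgr4 was at 0.72 with the neutrophil sum and at -0.75 with that of non-classical monocytes, Fcer1g at 0.84 and -0.69, and Fcgr2b at -0.37 and 0.86. Of the 12 neutrophil markers, 7 were called higher and none lower, with a median log2 fold change of 0.35, and young mice 5 and 6 had the lowest sums (68032 and 72427 CPM). Non-classical monocytes carry much Fcgr4 and little Ly6C, and how far the Ly6Chi gate left them out was not tested. Of the 9 tested markers of non-classical monocytes, Cd36 (log2 fold change 4.0), Apoc2 (1.56) and Dusp16 (0.50) were called higher. Ace (-1.28), Treml4 (-1.13) and Nr4a1 (-1.07) were called lower and 3 were not called. The whole list summed to 280 to 379 CPM for aged and 301 to 428 CPM for young mice. Of these sums Spn, which was not called, gave 226 to 293 CPM in aged and 223 to 243 CPM in young mice.

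Leaving out aged mice 1 and 2 did not remove the difference in the macrophage sum. The other 4 aged mice, at 670.1 to 818 CPM, were still above every young mouse. Slc40a1 gave much of these sums, as given above. Without aged mice 1 and 2 the log2 fold change was 0.73 for Fcgr4 (adjusted p = 0.00331, edgeR), 0.42 for Fcer1g (adjusted p = 0.0308) and -0.44 for Syk (adjusted p = 0.00285). That of Fcgrt was 0.67 without the call (adjusted p = 0.178, edgeR). Neutrophils carry Ly6G, which the Ly6G- gate is set to exclude, but transcripts of neutrophils and their precursors were abundant in every library. The part of macrophage, neutrophil and non-classical monocyte transcripts in these differences was not tested. Summed markers of B cells were at most 16.3 CPM and those of plasma cells at most 24.3 CPM in any library, those of dendritic cells at most 11.2 CPM, those of NK and T cells at most 30.5 CPM, those of erythroid cells at most 16.1 CPM and those of megakaryocytes at most 30.8 CPM. Markers of stromal and endothelial cells summed to 19.3 to 108 CPM in the aged group and 10.5 to 21.6 CPM in the young group. The highest sum of each of these 7 lists was that of aged mouse 1. Markers of basophils and mast cells summed to 447 to 748 CPM in the aged group and 578 to 749 CPM in the young group, of which Hdc gave 445 to 748 and 578 to 748 CPM, while Mcpt8, which defines basophils, was at most 0.214 CPM.

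**Figure D4:**
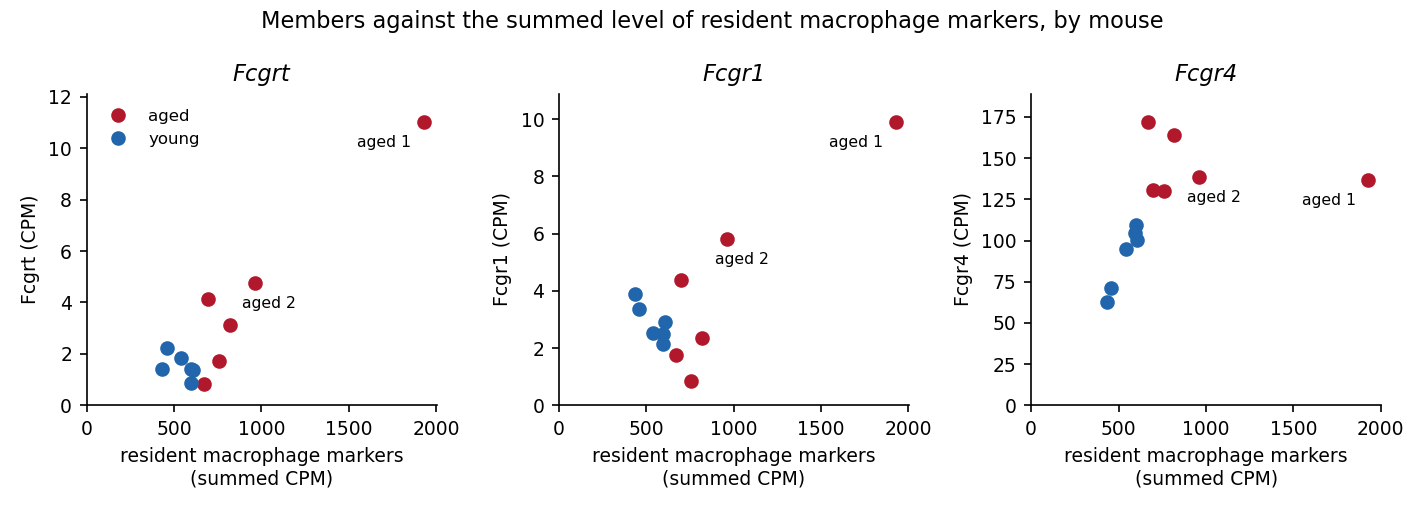
Levels of Fcgrt, Fcgr1 and Fcgr4 in each mouse, in 3 panels, against the summed level of resident macrophage markers, both in CPM, with aged mice in red and young mice in blue. Aged mouse 1, with the highest macrophage sum (1929 CPM), has the highest Fcgr1 (9.91 CPM) and Fcgrt (11.02 CPM). Young mice lie between 434 and 606 CPM on the macrophage axis, of which Slc40a1 gave 342 to 504 CPM.

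The genes that act with these receptors were followed in lists by role, to be read against the 45.4% of all genes that were called (22.4% higher, 23.0% lower). Among the other Fc receptors and Fc-binding proteins, 3 of 13 could be tested: B2m and Trim21, a cytosolic receptor for antibody, were higher (log2 fold change of Trim21 0.35, adjusted p = 0.0181, edgeR) and Fcrl1 was at -0.36 (adjusted p = 0.167). Without aged mouse 1, which had its highest level among aged mice, the Fcrl1 log2 fold change was -0.59 and was called (adjusted p = 0.00476, edgeR). Without aged mice 1 and 2, and also without TMM factors, B2m was the 1 gene of this list called higher, and Trim21 was not called. The IgE receptor subunits Fcer1a and Ms4a2, with which Fcer1g forms the receptor of mast cells and basophils, were at most 0.214 and 1.83 CPM in any library.

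The next list held other ITAM chains, related adaptor chains and receptors of similar families, not all of which are known to use an ITAM. Of these genes 15 were tested: 6 were higher, 1 was lower and 8 were not called. Their median log2 fold change was 0.11 against 0.0062 for all genes. Tyrobp (DAP12), the other main ITAM chain of myeloid cells, was higher (1009 ± 161 against 699 ± 167 CPM; log2 fold change 0.53, adjusted p = 0.0109, edgeR), and so was Clec4n (Dectin-2), a receptor that signals through Fcer1g (7.61 ± 3.45 against 2.08 ± 0.942 CPM; 1.92, adjusted p = 0.00147). Clec7a (Dectin-1), which carries its own ITAM-like motif and uses Syk, was also higher (0.69, adjusted p = 0.0190). Treml2 was the gene that fell (-0.36, adjusted p = 0.02001). Tyrobp, like Fcer1g, has a short transcript of 566 bases, and its log2 fold change was -0.034 after the length correction (adjusted p = 0.783, edgeR). With that correction 2 genes of the list were called higher (Clec4n and Clec7a) and 1 lower, and Treml2 was not called (-0.20, adjusted p = 0.140). The call for Treml2 was also lost without young mice 5 and 6 (-0.23, adjusted p = 0.107, edgeR) and without aged mice 1 and 2 (-0.27, adjusted p = 0.119). Leaving out 1 mouse ended it as well, where the Treml2 log2 fold change was -0.32 without aged mouse 2 (adjusted p = 0.0525, edgeR) and -0.28 without young mouse 6 (adjusted p = 0.0503).

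Among the kinases around the ITAM, calls went both ways. Of 6 tested kinases of the Src and Tec families, 1 was called higher, 2 lower and 3 not called, with a median log2 fold change of -0.077. Tec (-0.64, adjusted p = 3.62e-05, edgeR) and Yes1 (-0.78, adjusted p = 0.00788) were lower, the latter without a call when young mice 5 and 6 were left out (-0.61, adjusted p = 0.0657). The value was 0.048 for Lyn (adjusted p = 0.652, edgeR), 0.15 for Fgr (adjusted p = 0.103) and -0.20 for Btk (adjusted p = 0.0515). Lyn is the kinase that starts the phosphorylation of ITAM and ITIM motifs in myeloid cells.

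Of 32 tested adaptors and effectors downstream of Syk, 6 were higher, 15 lower and 11 not called, against 22.4% higher and 23.0% lower over all genes, with a median log2 fold change of -0.15. Those that fell include the phospholipase Plcg2 (-0.27, adjusted p = 0.00229, edgeR), the adaptors Fyb (-0.56, adjusted p = 6.71e-05), Sh3bp2 (-0.45, adjusted p = 3.47e-04) and Lcp2 (SLP-76; -0.22, adjusted p = 0.00493), the Ras activator Sos1 (-0.72, adjusted p = 6.68e-05) and the PI3-kinase subunits Pik3r1 (-0.40, adjusted p = 1.50e-04) and Pik3r5 (-0.53, adjusted p = 0.00149). Those that rose are Grb2 and small GTPases with their effector: Cdc42 (0.56, adjusted p = 0.00100), Rac1 (0.42, adjusted p = 0.00152), Rac2 (0.28, adjusted p = 0.0248), Arf6 (0.25, adjusted p = 0.00270) and Was (0.23, adjusted p = 0.00935), which drive actin during phagocytosis. With the correction for length 4 were called higher and 8 lower: Plcg2 (-0.13, adjusted p = 0.0796, edgeR), Pik3r1 (-0.022, adjusted p = 0.815), Was (0.14, adjusted p = 0.0787) and Grb2 (0.15, adjusted p = 0.0842) lost their calls, Sos1 was at -0.25 (adjusted p = 0.0184), and Fyb, Sh3bp2, Lcp2, Pik3r5, Cdc42, Rac1, Rac2 and Arf6 were called in the same direction.

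**Figure D5:**
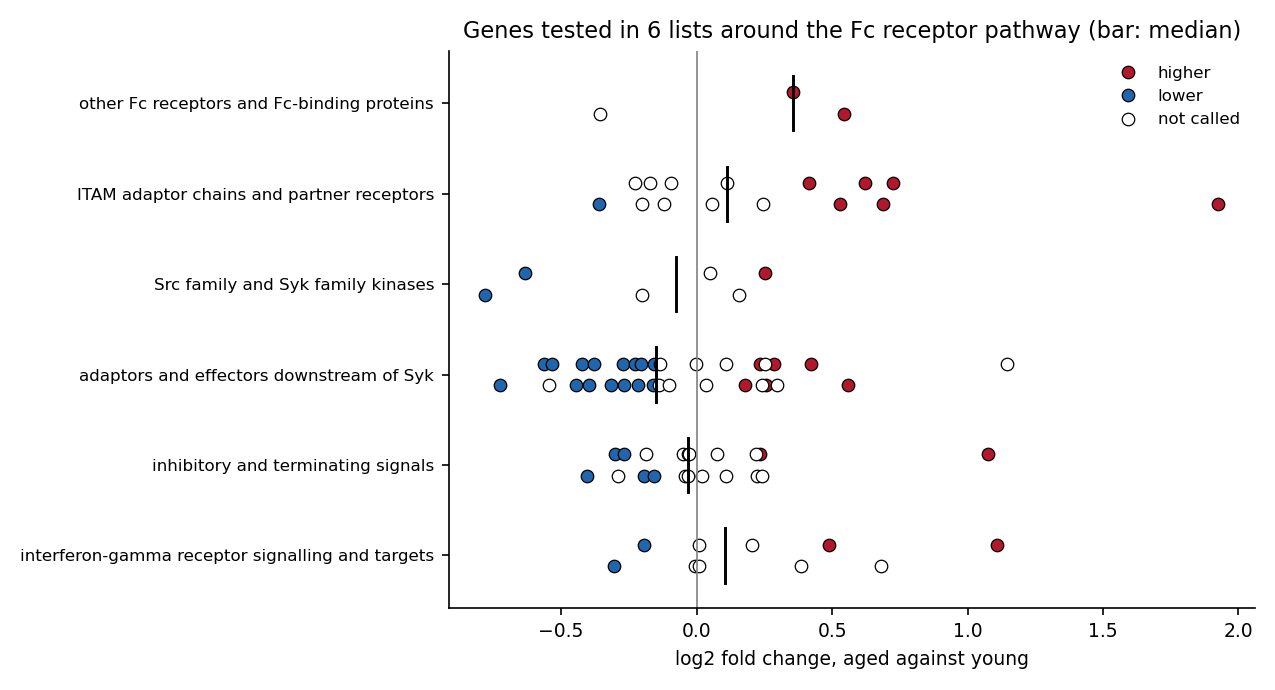
Log2 fold changes of the tested genes of each list, aged against young, 1 point per gene, red where called higher, blue where called lower and white where not called, with a bar at the median of each list. The adaptors and effectors downstream of Syk lie mostly below 0 (15 of 32 called lower, 6 higher), and the ITAM chains and partner receptors mostly around or above 0 (6 of 15 called higher, 1 lower).

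Of 20 tested genes that end or restrain the signal, 2 were higher, 5 lower and 13 not called, against 22.4% higher and 23.0% lower over all genes, with a median log2 fold change of -0.033. Inpp5d (SHIP-1), the partner of Fcgr2b, was lower by a small amount (-0.16, adjusted p = 0.0407, edgeR), Cbl, the ubiquitin ligase that removes activated Syk, was lower (-0.40, adjusted p = 5.98e-04), and Ptpn6 (SHP-1) was at 0.076 (adjusted p = 0.355). Pecam1, which has ITIM motifs and is also one of the stromal and endothelial markers whose sum is given above, was higher (1.07, adjusted p = 4.01e-04), as was Csk, which holds Src kinases inactive (0.23, adjusted p = 0.0202). Ptprc (CD45), which opens Src kinases, was lower (-0.27, adjusted p = 0.00641). With the correction for length, Pecam1 (1.12, adjusted p = 5.19e-04, edgeR) and Cbl (-0.20, adjusted p = 0.0244) were called in the same direction, and Ptprc (-0.019, adjusted p = 0.835), Csk (0.17, adjusted p = 0.0851) and Inpp5d (0.035, adjusted p = 0.691) were not called. Csk was also not called without young mice 5 and 6 (0.16, adjusted p = 0.119, edgeR), nor Inpp5d without aged mice 1 and 2 (-0.12, adjusted p = 0.155).

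Fcgr1 is a known target of interferon gamma, and its promoter window holds the GAS letters. The receptor and targets of this cytokine were therefore looked at as a list. Of 10 tested, 2 were higher, 2 lower and 6 not called, close to the shares over all genes, with a median of 0.11. Ifngr1 (0.49, adjusted p = 0.00108, edgeR) and the GTPase Gbp2 (1.11, adjusted p = 0.00155) were higher and the kinases Jak1 (-0.20, adjusted p = 0.0180) and Jak2 (-0.31, adjusted p = 0.00186) lower. Irf1, a transcription factor induced by this cytokine, was not called, at -0.0066 (adjusted p = 0.957, edgeR). With the correction for length 3 genes were called higher and 0 lower: Jak1 was at 0.025 (adjusted p = 0.797, edgeR) and Jak2 at -0.10 (adjusted p = 0.201), and Ifngr1 (0.40, adjusted p = 0.00496) and Gbp2 (1.07, adjusted p = 0.00290) were called as before. Jak1 was not called without aged mice 1 and 2 (-0.14, adjusted p = 0.102, edgeR).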

How the data were processed

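RNA from 12 mice was sequenced in pairs of reads from stranded libraries. The authors deposited counts, whole numbers of fragments per gene without normalization, made with featureCounts 2.0.0 on exons of mm10 genes, with mates on 1 chromosome, reverse-stranded, and mapping quality 60 or more. No aligner is given in the sources used here. The deposited table also holds exon length (bases) per gene, used for levels per kb and for the length correction. Each column was matched to its mouse by its label, and none was left out.

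Counts were fitted with edgeR 4.0.16 in R 4.3.3 (filterByExpr, TMM factors, quasi-likelihood test, Benjamini-Hochberg adjustment over 9742 genes, threshold 0.05), after the script was tested on simulated data. The standard error is the absolute log2 fold change divided by the square root of F, and the interval uses 10 degrees of freedom. CPM are relative to TMM-scaled totals. Correlations use log2 CPM with a prior count of 2. Genes named are the 7 members, the largest rise, largest fall and smallest p of each list, uncalled or opposed members where these are 5 or fewer, and B2m, Tyrobp, Lyn, Fgr, Btk, Plcg2, Inpp5d and Ptpn6; other genes were named after their values were seen, and some genes of this rule are not reported here. The members and lists were chosen with earlier results of these data known. Alternatives were DESeq2 1.42.0, limma-voom 3.58.1, other scalings and filters, a length correction, thinned counts, a replicate block and leaving out mice.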

Additional observations from a re-analysis of the deposited data

Results flagged for a closer look

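Fcer1g in aged mice was flagged because aged mouse 5 stood away from the others, at 777.9 CPM against 671 CPM in the next highest, a gap of 0.630 of the range of the 6 mice. Fcrl1, an Fc receptor-like protein of B cells, was flagged for aged mouse 1, at 11.1 CPM against 6.09 CPM in the next highest, a gap of 0.776 of the range; without this mouse the Fcrl1 log2 fold change was -0.59 (adjusted p = 0.00476, edgeR). The limit was Dixon's 95% critical value for 6 samples, and 60 groups of 6 mice (30 genes at 2 ages) were looked at, of which chance flags about 1 in 20.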

How the results depend on the processing

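Fcgr4 and Syk were called in the same direction under each of 13 other settings (log2 fold changes 0.42 to 0.86 and -0.65 to -0.30) and in each of 12 fits without 1 mouse (0.60 to 0.75 and -0.56 to -0.48). Fcer1g was called in all but the length correction (-0.10). Fcgrt, with its few counts, was not called with limma-voom (0.98; adjusted p = 0.159), the length correction (1.25), the replicate block (1.27; adjusted p = 0.126) or without young mice 5 and 6 (1.55), aged mice 1 and 2 (0.67) or aged mouse 1 and young mice 5 and 6 (1.03), and lay between 0.88 and 1.63 without 1 mouse. The last 3 sets of mice were chosen after the data were seen. Fcgr3 lay between 0.12 and 0.23 without 1 mouse and at -0.073 with the length correction. Signs turned for Fcgr1 (-0.26) without aged mice 1 and 2, and for Fcgr2b without young mice 5 and 6 (0.068) and with aged mouse 1 also left out (0.060). Members called higher numbered 1 with the length correction, and genes called higher 1392 and 1425 without young mice 5 and 6, alone or with aged mouse 1. Other Fc receptors had 1 call without TMM factors and 1 with the length correction. That correction left 3 genes of the ITAM list and 12 genes downstream of Syk called. Kinases had 5 calls with DESeq2, 5 without a filter and 1 without young mice 5 and 6. The length correction turned Jak1 (0.025), Tyrobp (-0.034) and Inpp5d (0.035), library totals without TMM turned Lyn (-0.039) and Ptpn6 (-0.017), and leaving out young mice 5 and 6 turned Lyn (-0.047). Without TMM, 1680 genes were called higher and 2767 lower (37.8% higher, 49.4% with TMM), and the median of all genes was -0.081. The cause of these changes was not tested. Same-numbered mice did not deviate together (correlations -0.25 to -0.065, 0 of 4 best with their own number). The replicate block gave 1657 higher and 1812 lower genes. Only the mouse numbers 1, 2, 5 and 6 occur at both ages, so this fit compares the ages through those mice alone. Depth limits Fcgr1 and Fcgrt, for which a minimum of 10 counts in every mouse gave no value, and thinned counts gave none for Fcgrt.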
